A study of Mus musculus with 8 samples.

Results

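A group of 10 genes of insulin-like growth factor (IGF) and insulin reception was followed through 8 mouse hearts, 4 in which the IGF-1 receptor gene was to be deleted and 4 controls. The 10 genes were chosen by name, and every probe whose RefSeq accession led to one of them was taken, which gave 16 of the 39429 probes outside the control spots. The receptors are Igf1r, Insr and Igf2r, the ligands Igf1 and Igf2, and the adaptors and inhibitors Irs1, Irs2, Shc1, Grb10 and Grb14. Each of the 16 probes was well above background on all 8 arrays, so no member was lost to the filter on dim probes. At 1 probe a gene, the 10 members stood among 21434 genes and unnamed features tested.

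The hearts came from male C57BL6 mice. The dtg (double transgenic) animals were merCremer/+ IGFloxP/IGFloxP, and the controls carried Cre recombinase and no floxed IGF-1R. The treatment text names 4OH-Tamoxifen, 500 µg on each of 10 days in a row from an age of 8 months, to cut out the third exon of the receptor gene, with hearts taken 6 weeks later. It makes no exception for controls, so Cre and the drug are taken as shared by both groups. The labels name no promoter for merCremer, and whole hearts were measured, so cells in which Cre is not active are part of every value. The labels do not state that each sample was a separate animal, and p-values then cover only the variation from sample to sample, part or all of which may be technical.

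IGF1 and IGF2 bind the IGF-1 receptor, a tyrosine kinase closely related to the insulin receptor. Both kinases hand the signal on by phosphorylating docking proteins of the IRS family, which recruit PI3-kinase and so Akt, and the adaptor Shc, which leads to Ras and MAP kinase. Grb10 and Grb14 bind the active receptors and dampen them, while the IGF-2 receptor carries IGF2 to the lysosome without signalling through a kinase domain. In heart muscle this pathway is known for its part in growth, glucose use and cell survival.

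Promoter sequence was taken from RefSeq (build GRCm38.p6) as the 250 bases before the annotated start of transcription, for 9 of the 10 members. Of these, 4 are printed: that of Igf1r, the gene the study set out to delete, and those of Irs1, Irs2 and Igf2r, which held the E-box CACGTG, the site bound by the clock factors and by Myc. Capitals mark matches to the E-box and to the GC box GGGCGG on either strand, and the matches to these 2 motifs did not overlap each other. The 4 sequences lie at chr7:67952007-67952256 on the + strand for Igf1r and, on the - strand, at chr1:82291440-82291689 for Irs1, chr8:11008930-11009179 for Irs2 and chr17:12769707-12769956 for Igf2r.
Igf1r: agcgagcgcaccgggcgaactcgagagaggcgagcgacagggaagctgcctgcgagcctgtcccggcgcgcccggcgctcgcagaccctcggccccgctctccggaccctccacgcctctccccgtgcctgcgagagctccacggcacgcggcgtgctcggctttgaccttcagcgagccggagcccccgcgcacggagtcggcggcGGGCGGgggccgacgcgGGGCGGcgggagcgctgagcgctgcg
Irs1: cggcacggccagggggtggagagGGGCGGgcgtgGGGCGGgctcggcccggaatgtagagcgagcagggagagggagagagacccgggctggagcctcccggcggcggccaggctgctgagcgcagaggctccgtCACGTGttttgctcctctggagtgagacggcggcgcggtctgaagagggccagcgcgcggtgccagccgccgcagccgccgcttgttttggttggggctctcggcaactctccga
Irs2: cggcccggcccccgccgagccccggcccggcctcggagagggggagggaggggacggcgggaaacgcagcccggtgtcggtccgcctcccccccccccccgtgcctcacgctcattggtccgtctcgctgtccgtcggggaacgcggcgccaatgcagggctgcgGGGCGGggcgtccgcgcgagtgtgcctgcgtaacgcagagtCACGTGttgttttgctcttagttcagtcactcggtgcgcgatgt
Igf2r: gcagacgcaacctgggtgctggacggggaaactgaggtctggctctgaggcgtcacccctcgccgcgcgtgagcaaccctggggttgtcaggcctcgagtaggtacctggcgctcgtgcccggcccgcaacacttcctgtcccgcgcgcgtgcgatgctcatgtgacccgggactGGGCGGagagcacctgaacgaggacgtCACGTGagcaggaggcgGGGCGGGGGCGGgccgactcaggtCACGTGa

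The E-box began 115 bases before the start in Irs1, 44 bases before it in Irs2, and 48 and 7 bases before it in Igf2r. It was present in 3 of 14 promoter entries of the members (21.4%) and in 6.02% of 32851 entries of all genes. GC boxes were in 9 of the 14 entries (64.3%), against 32.7% of all. The FOXO core TGTTTAC and the letters TATAAA, searched on both strands, were in none of the 14, and in 3.17% and 12.4% of all entries. The 4 printed promoters were rich in G and C, at 77.6% for Igf1r, 72.4% for Irs1, 72.8% for Irs2 and 69.2% for Igf2r, where the median of all entries was 52.4%. A match describes the letters of the window, and no site was measured.

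RNA was measured on 1-colour arrays, and each value here is the log2 of the processed spot signal minus the 75th percentile of its array, called the relative log2 signal. A value of 0 thus equals that percentile, which lay between 680 and 946 intensity units. Brightness depends on the probe, so levels are compared between hearts and not between genes. The arrays lay on 2 slides with 2 dtg and 2 control hearts each, and the slides were also the 2 scans. Dtg 3, dtg 4 and control 4 stood apart: their Pearson's r with any other array, across features, was 0.973 to 0.988, whereas dtg 1, control 1 and control 2 had 0.995 with each other, as did dtg 2 with control 3. All 6 heart muscle markers were well above background on every array, 2 of them higher on average in dtg hearts, with a summed relative signal of 2188 to 2453 in dtg and 2270 to 2459 in control hearts. Of 4 liver markers, Serpina1a was well above background on all 8 arrays, Ttr on 7, Apoa1 on 3 and Alb on 0. All 4 were higher on average in dtg hearts, with sums of 0.28 to 0.36 in dtg and 0.16 to 0.39 in control hearts.

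None of the 10 members differed between dtg and control hearts by limma's test, in which 0 of 21434 features passed an adjusted p of 0.05 (0% of all features). At an unadjusted p under 0.05 there were 160 features (0.746%) and 0 of the 10 members. The groups did not overlap for 111 features (0.518%), and overlapped for all 10 members and all 16 probes. Of the members, 8 were lower and 2 higher on average in dtg hearts, while 9569 of all features were lower and 11865 higher. The members had a median difference of -0.047, against 0.015 over all features. Their median size of difference, without sign, was 0.093, where that of all features was 0.079, and their median SD within a group was 0.21, against 0.26.

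**Figure D1:**
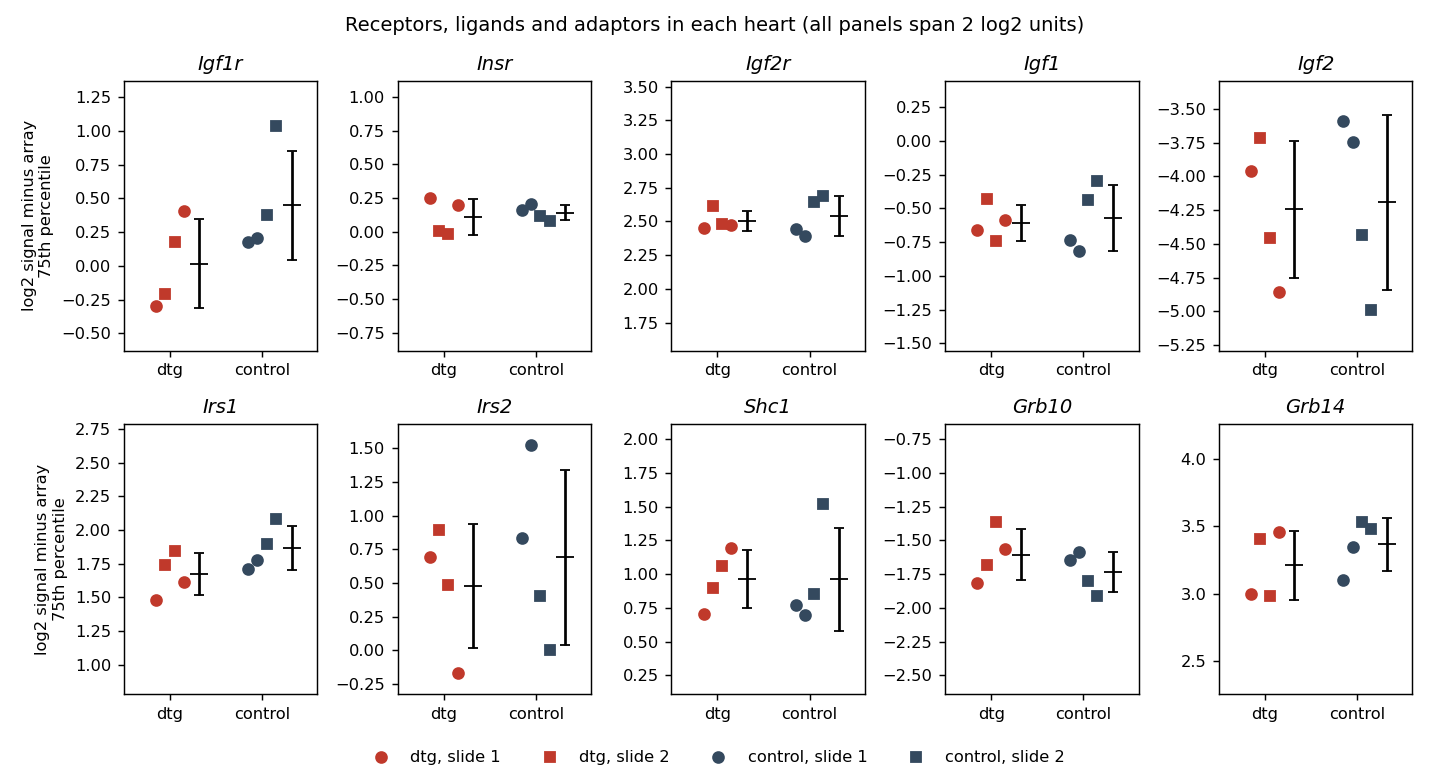
Relative log2 signal of the 10 members in each heart, 1 probe a gene, dtg on the left and control on the right of each panel, with circles for slide 1 and squares for slide 2. Black bars are the mean and SD of 4 hearts, and every panel spans the same number of log2 units. The groups overlap in every panel, while Igf2 and Irs2 spread the most within groups.

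Igf1r, the kinase receptor for IGF1 and the target of the deletion, had the largest difference of the 10. Its relative log2 signal was -0.30, -0.21, 0.17 and 0.40 in dtg hearts 1 to 4, and 0.18, 0.21, 0.38 and 1.04 in control hearts 1 to 4. In units of intensity these were 689, 797, 895 and 932 in dtg and 898, 948, 1228 and 1397 in control hearts. Below every control heart lay 3 dtg hearts, dtg 3 only just, and dtg 4 lay above 3 of the 4 controls. The difference of -0.43 (SE 0.24, 95% interval -0.99 to 0.12; unadjusted p = 0.108 and adjusted p = 1, limma) allows a signal up to 1.98 times as high in controls, or 1.09 times as high in dtg hearts. It was larger in size than that of 94.7% of all features. The two-sided exact permutation p was 0.171, where 4 hearts against 4 can reach 0.0286. Within slide 1 the difference was -0.14 and within slide 2 it was -0.73, without control 4 it was -0.24, and without dtg 3, dtg 4 and control 4 it was -0.51. Whether the single probe (A_66_P105801) reads the exon that was to be removed cannot be told here, and these values are no check of the genotype. All 4 atrial markers had a lower mean in dtg than in control hearts, and their mean log2 level had an r of 0.609 with Igf1r (exact permutation p = 0.103, adjusted over 90 relations 0.576) and a rho of 0.690 (exact permutation p = 0.0694, adjusted 0.591). For the leukocyte markers the r with Igf1r was -0.590 (exact permutation p = 0.117, adjusted 0.583). Their rho with Igf1r was -0.833 (exact permutation p = 0.0154, adjusted 0.346). The part of atrial tissue or of leukocytes in the Igf1r values was not tested. Fewer cells holding the RNA and less RNA in each cell cannot be told apart in whole hearts.

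Insr, the insulin receptor, was read by 3 probes that did not follow one another from heart to heart. At the brightest, A_52_P494514, the relative log2 signal was 0.25, 0.01, -0.02 and 0.20 in dtg hearts 1 to 4 and 0.16, 0.21, 0.12 and 0.08 in control hearts 1 to 4. These 8 values lay within a 1.20-fold range, and 5.71% of all features had a smaller SD within groups. The difference was -0.031 (SE 0.10, 95% interval -0.27 to 0.21; adjusted p = 1, limma). At A_55_P2172566 the means were -0.998 ± 0.242 in dtg and -1.10 ± 0.20 in control hearts (SD, n = 4 each), a difference of 0.10 (SE 0.16). At A_55_P2173927 the values were -0.64, -0.53, -0.92 and -1.47 in dtg hearts and -0.57, -0.72, -0.80 and -1.99 in control hearts. Here dtg 4 and control 4 were the lowest hearts of their groups, on different slides. Across the 8 hearts this probe had an r of 0.081 with the brightest probe and of -0.640 with A_55_P2172566, given as a description.

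Igf2r, the receptor that clears IGF2, varied little, and 9.07% of all features had a smaller SD within groups. Its probe is printed 10 times on the array, and the SD between spots was 0.038 to 0.11 on the log2 scale. The relative log2 signal was 2.45, 2.61, 2.48 and 2.48 in dtg hearts 1 to 4, and 2.44, 2.39, 2.65 and 2.69 in control hearts 1 to 4. The 2 slide 2 controls and dtg 2 were the high hearts, and the groups overlapped. The difference was -0.039 (SE 0.11, 95% interval -0.29 to 0.21; adjusted p = 1, limma). An interval of that width covers a signal up to 1.22 times as high in controls or 1.16 times as high in dtg hearts.

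Igf1, the growth factor made by the liver and within tissues, was covered by 4 probes. The brightest, A_55_P2031631, gave -0.66, -0.43, -0.74 and -0.58 in dtg hearts 1 to 4 and -0.74, -0.81, -0.44 and -0.30 in control hearts 1 to 4. Control 4 was highest and control 2 lowest, so the dtg hearts lay inside the control range. The difference was -0.033 (SE 0.15, 95% interval -0.37 to 0.30; adjusted p = 1, limma). The other 3 probes gave -0.062, -0.086 and -0.0069. Probes A_55_P2085974 and A_55_P2085984 followed the brightest one across hearts, with r of 0.624 and 0.795. The dimmest, A_55_P2031636, did not (r = -0.580), with its lowest values of -3.62 in dtg 2 and -3.78 in control 3.

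**Figure D2:**
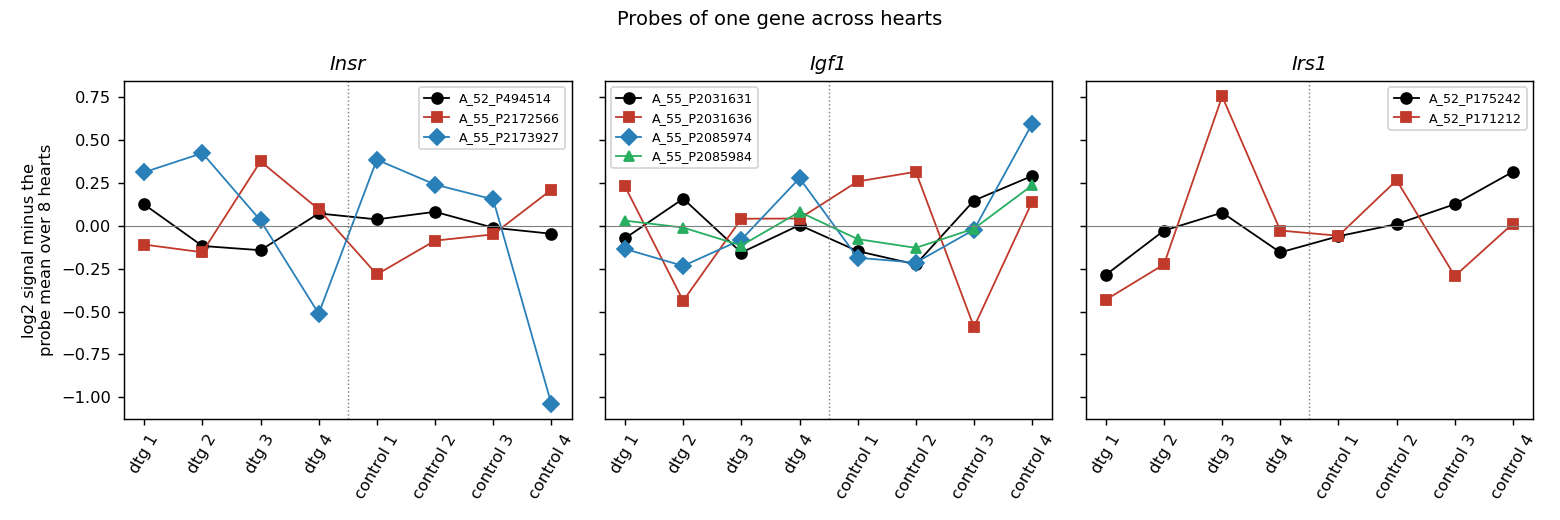
Relative log2 signal of each probe of Insr, Igf1 and Irs1, minus that probe's mean over the 8 hearts, with the dtg hearts to the left of the dotted line and control hearts to the right. Lines join the values of a probe and imply no order of hearts. Insr probe A_55_P2173927 drops in dtg 4 and control 4, and Igf1 probe A_55_P2031636 drops in dtg 2 and control 3.

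Igf2, the ligand of fetal growth, varied widely between hearts in both groups. Processed signals were 54.6, 70.5, 36.1 and 24.4 intensity units in dtg hearts 1 to 4, and 66.0, 61.3, 43.8 and 21.3 in control hearts 1 to 4. The relative log2 signal was -3.96, -3.71, -4.46 and -4.85 in dtg hearts and -3.59, -3.75, -4.43 and -4.99 in control hearts. In both groups replicate 4 was lowest, and the 8 hearts spanned a 2.64-fold range. The difference was -0.054 (SE 0.37, 95% interval -0.90 to 0.79; adjusted p = 1, limma), with -0.74 within slide 1 and 0.63 within slide 2. With quantile normalization it was -0.37, and with the authors' deposited values -0.37.

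Irs1, the docking protein that links the receptors to PI3-kinase, was lower on average in dtg hearts at its bright probe. A_52_P175242 gave 1.48, 1.74, 1.85 and 1.61 in dtg hearts 1 to 4 and 1.71, 1.78, 1.90 and 2.09 in control hearts 1 to 4. Of the dtg hearts, 2 lay below all controls and 2 within their range. The difference was -0.20 (SE 0.13, 95% interval -0.49 to 0.10; unadjusted p = 0.166 and adjusted p = 1, limma), and it was -0.20 within slide 1 and within slide 2. At 1 probe a gene, Igf1r and Irs1 were the members lower within both slides, and the other 8 changed sign between them. The dim second probe of Irs1, A_52_P171212, differed by 0.036 (SE 0.26), with dtg 3 highest at -2.76. It did change sign, at -0.33 within slide 1 and 0.41 within slide 2.

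Irs2, the second docking protein, whose transcript is known in liver to fall after feeding, had the widest range of the 10. Its relative log2 signal was 0.69, 0.89, 0.49 and -0.17 in dtg hearts 1 to 4, and 0.83, 1.52, 0.41 and 0.0047 in control hearts 1 to 4. Control 2 was highest and dtg 4 lowest, a 3.22-fold range. The SD was 0.46 in dtg and 0.65 in control hearts, and 80.9% of all features had a smaller SD within groups. The difference was -0.22 (SE 0.35, 95% interval -1.03 to 0.60; adjusted p = 1, limma). Within slide 1 it was -0.91 and within slide 2 it was 0.48, so the direction turned between the slides. A signal 2.04 times as high in controls lies within the interval. Atrial markers differed between the same hearts: the summed relative signal of Myl7, Myl4, Sln and Nppa was 261, 70.4, 76.2 and 524 in dtg hearts 1 to 4, and 274, 59.6, 506 and 681 in control hearts 1 to 4. The 2 hearts with the least Irs2, dtg 4 and control 4, had the most atrial signal in their groups, and the mean log2 level of the 4 markers had an r with Irs2 of -0.779 (exact permutation p = 0.0206, adjusted over 90 relations 0.371) and a rho of -0.881 (exact permutation p = 0.00724, adjusted 0.346). The part of atrial tissue in the Irs2 values was not tested.

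Shc1, the adaptor towards Ras, gave 0.70, 0.90, 1.06 and 1.20 in dtg hearts 1 to 4, and 0.77, 0.70, 0.85 and 1.52 in control hearts 1 to 4. Control 4 stood highest by itself, and the group means were 0.96 ± 0.21 in dtg and 0.96 ± 0.38 in control hearts (SD, n = 4 each). The difference was 0.0035 (SE 0.21, 95% interval -0.47 to 0.48; adjusted p = 1, limma). Grb10, an inhibitor that binds both receptors, gave -1.81, -1.68, -1.36 and -1.56 in dtg hearts 1 to 4 and -1.65, -1.58, -1.80 and -1.91 in control hearts 1 to 4. Of the dtg hearts, 2 were above every control, and the difference was 0.13 (SE 0.13, 95% interval -0.18 to 0.44; adjusted p = 1, limma), with -0.072 within slide 1 and 0.33 within slide 2. Grb14, the related inhibitor best known for its action on the insulin receptor, gave 3.00, 3.41, 2.98 and 3.46 in dtg hearts 1 to 4 and 3.099, 3.35, 3.53 and 3.48 in control hearts 1 to 4. Dtg 1 and dtg 3 lay below every control, and the difference was -0.16 (SE 0.16, 95% interval -0.53 to 0.22; adjusted p = 1, limma).

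**Figure D3:**
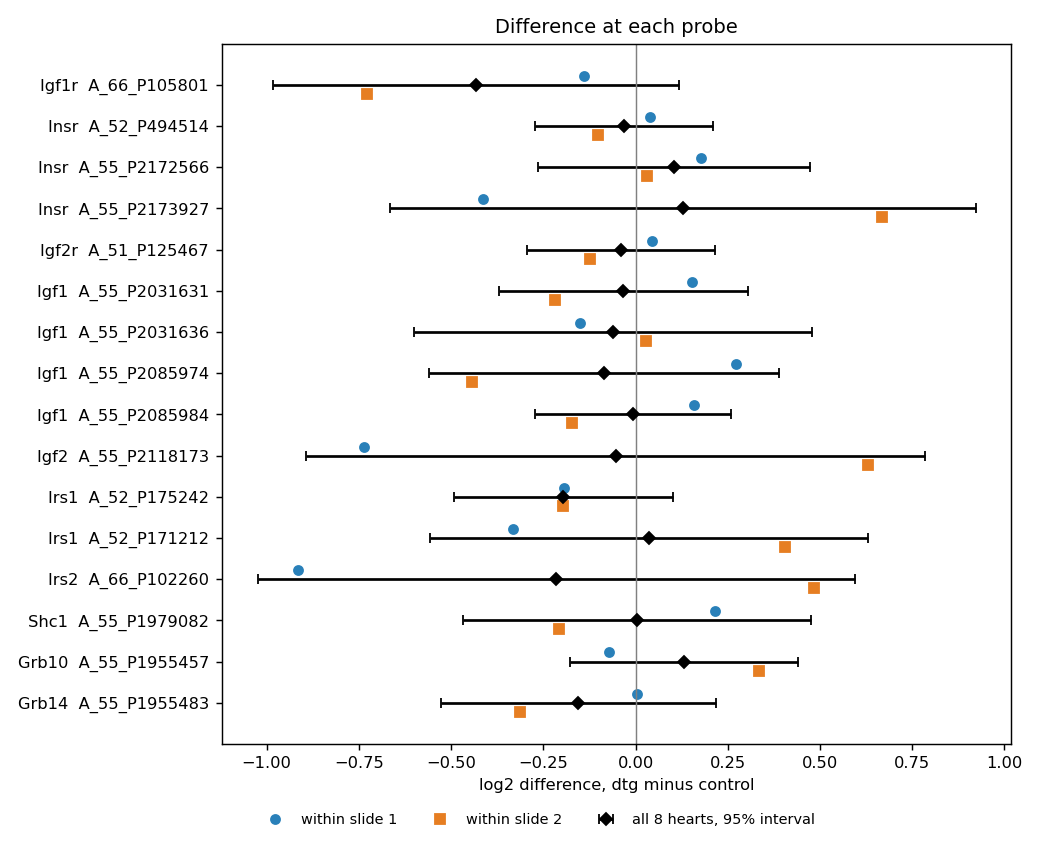
Difference in relative log2 signal, dtg minus control, at each of the 16 probes, with the 95% interval from limma (diamonds and bars) and the difference within each slide (circles and squares). Every interval crosses 0. Within-slide values lie on opposite sides of 0 for Igf2 and Irs2 and on the same side for Igf1r.

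Across the 8 hearts, the members were set against Igf1r, a family of 9 relations. Shc1 had the highest Pearson's r at 0.796 (exact permutation p = 0.0203, adjusted p = 0.0838), with a Spearman's rho of 0.524 (exact permutation p = 0.197, adjusted p = 0.354). Without dtg 1 and control 4, the hearts farthest from the median of Igf1r, its r was 0.247. Without control 4 alone it was 0.451 and without dtg 1 alone 0.761. Irs1 was similar, with an r of 0.779 (exact permutation p = 0.0279, adjusted p = 0.0838), a rho of 0.524 (exact permutation p = 0.197) and an r of 0.0108 without those hearts. The dim second probe of Irs1 had an r of 0.228 with Igf1r (exact permutation p = 0.560), and the mean of its probes 0.484. Igf2 ran the other way, with an r of -0.745 (exact permutation p = 0.0248, adjusted p = 0.0838), a rho of -0.619 (exact permutation p = 0.115) and an r of -0.659 without those hearts. With quantile normalization the r of Igf2 was -0.488 (adjusted exact permutation p = 0.439), and with the authors' deposited values -0.487. With a normexp background correction it was -0.475 (adjusted exact permutation p = 0.537), and with median scaling -0.504 (adjusted exact permutation p = 0.263). None of the 9 passed an adjusted p of 0.05. For Irs2 the r was -0.552, for Grb14 0.538, for Igf2r 0.490, for Igf1 0.472, for Grb10 -0.273 and for Insr -0.130, with adjusted exact permutation p-values between 0.315 and 0.765. Their rho ranged from -0.619 for Irs2 to 0.738 for Grb14, with adjusted exact permutation p-values between 0.345 and 0.935. Each slide holds 4 hearts, and no r was computed within a slide.

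Within each group, hearts with more Igf1r tended to have more Shc1: the 4 dtg hearts had the same order in both genes, and among the 4 control hearts 1 and 2 changed places. With the mean of each group removed, r with Igf1r was 0.967 for Shc1 (exact permutation within groups, p = 0.00347, adjusted p = 0.0234) and -0.938 for Igf2 (p = 0.00521, adjusted p = 0.0234, exact permutation within groups), where the smallest possible p was 0.00174. By rho, Shc1 passed (0.952, adjusted p = 0.0469, exact permutation within groups) and Igf2 did not (-0.810, adjusted p = 0.102, exact permutation within groups). No other normalization was run with group means removed. For Irs2 the r was -0.834 (exact permutation within groups, p = 0.0226, adjusted p = 0.0677), and 19.6% of 14807 named genes had an r larger in size. With the mean of each slide removed, none of the 9 passed, and the adjusted exact permutation p was 0.198 for Shc1, Irs1 and Igf2. Of 14807 named genes, 1.18% had an r with Igf1r larger in size than that of Shc1 when group means were removed, and 4.40% larger than that of Igf2. Without that step the shares were 7.17% for Shc1, 9.18% for Irs1 and 13.8% for Igf2.

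**Figure D4:**
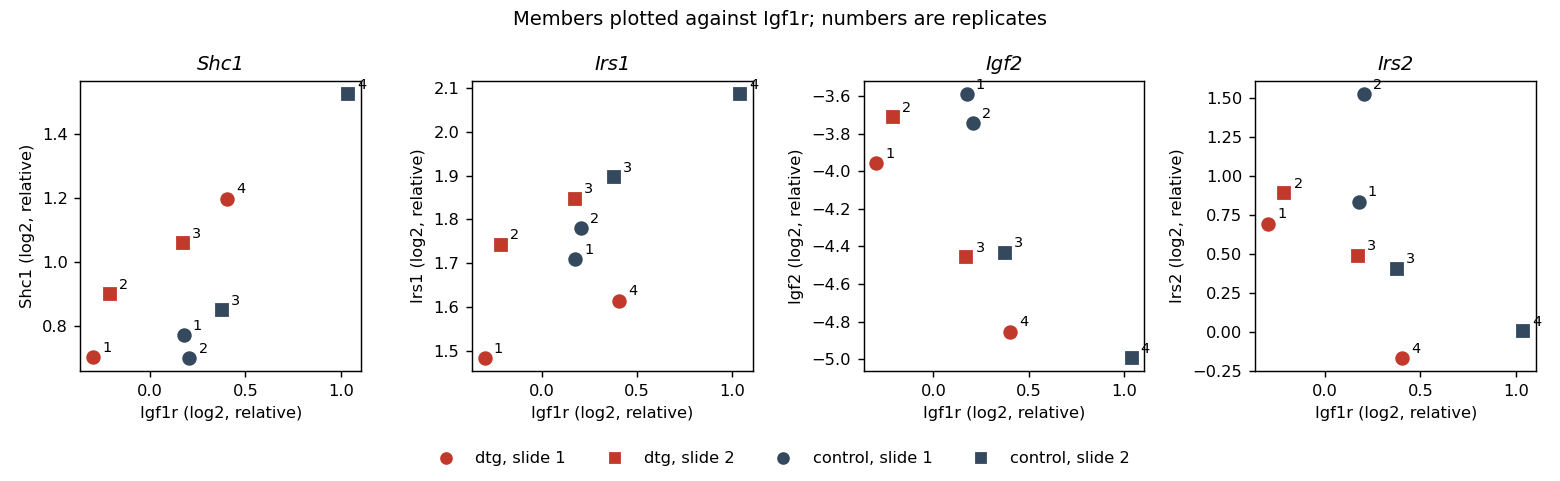
Relative log2 signal of Shc1, Irs1, Igf2 and Irs2 (vertical axes) against that of Igf1r (horizontal axes) in each heart, dtg in red and control in dark blue, circles for slide 1 and squares for slide 2, numbered by replicate. Control 4 is the heart with the most Igf1r in every panel and has the most Shc1 and Irs1 and the least Igf2.

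Taken probe by probe, 15 relations with Igf1r, 2 passed an adjusted p of 0.05 by Pearson's r and none by Spearman's rho. Insr probe A_55_P2173927 had an r of -0.869 (exact permutation p = 0.00335, adjusted p = 0.0407) and a rho of -0.762 (exact permutation p = 0.0368, adjusted p = 0.288). Igf1 probe A_55_P2085974 had an r of 0.860 (exact permutation p = 0.00543, adjusted p = 0.0407) and a rho of 0.714 (exact permutation p = 0.0576, adjusted p = 0.288). Of 26084 other probes above the filter, 1.28% and 1.66% had a larger r in size with Igf1r than these. Without dtg 1 and control 4 these r were -0.666 and 0.701. The brightest probes of the same genes had r of -0.130 and 0.472.

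The 45 pairs among the members gave 1 relation past an adjusted p of 0.05. Igf1 and Igf2r had an r of 0.955 (exact permutation p = 0.000521, adjusted p = 0.0234) and a rho of 0.833 (exact permutation p = 0.0154, adjusted p = 0.344). The share of 14807 named genes with a larger r in size with Igf2r was 0.344%. The r of Igf1 and Igf2r was 0.905 without the 2 hearts farthest from the median of Igf2r, 0.970 with slide means removed and 0.958 with group means removed. The pairs were not computed under another normalization. The other Igf1 probes had r with Igf2r of 0.534, 0.639 and, at the dimmest, -0.665. Igf2 and Irs2 followed with 0.877 (exact permutation p = 0.00263, adjusted p = 0.0551), and Igf2 and Shc1 with -0.859 (exact permutation p = 0.00367, adjusted p = 0.0551). Without the 2 hearts farthest in Igf2 these were 0.707 and -0.603.

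**Figure D5:**
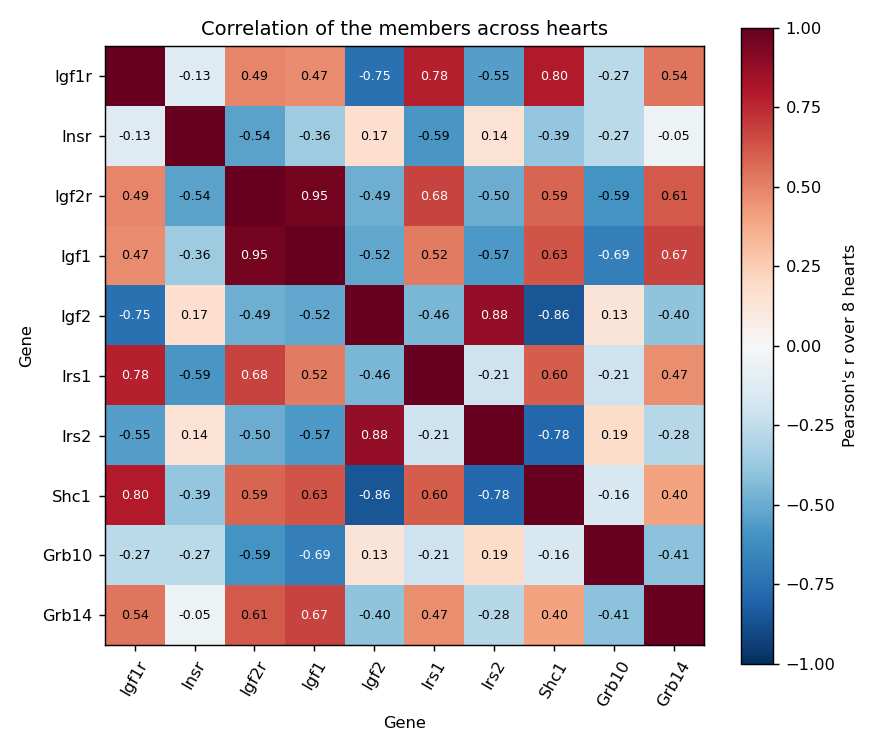
Pearson's r over the 8 hearts for every pair of the 10 members, 1 probe a gene, red for positive and blue for negative values. Igf1 with Igf2r is the highest at 0.955, and Igf2 with Shc1 the lowest at -0.859.

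The 5 named genes whose signal was most like that of Igf1r over the 8 hearts, of 14807 compared, were Gprasp2 (r = 0.971), Sms (0.969), Amph (0.964), Metrnl (0.963) and Shroom2 (0.962). Gprasp2 sorts receptors coupled to G proteins, Sms is spermine synthase, Amph acts in endocytosis, Metrnl is a secreted protein and Shroom2 binds actin. Without dtg 1 and control 4 their r with Igf1r were 0.878, 0.904, 0.830, 0.861 and 0.820. These 5 were picked from all genes for their likeness, so their r is a description.

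The mean log2 levels of 9 marker lists, heart muscle and 8 other cell types or tissues, were set beside the 10 members in 90 relations, of which none passed an adjusted p of 0.05 (smallest adjusted exact permutation p 0.282 for r and 0.346 for rho). The largest r in size were -0.875 for Grb10 with smooth muscle, -0.867 for Grb14 with leukocyte and 0.834 for Grb14 with fibroblast markers. Their adjusted exact permutation p-values were 0.282, 0.282 and 0.322. Fibroblast markers, all 6 well above background on every array, had lower means in dtg hearts for 5 of 6 and a summed relative signal of 110 to 183 in dtg and 108 to 176 in control hearts. Every such sum adds signals on a linear scale, so the brightest markers weigh most in it, such as Dcn among the fibroblast markers. The 5 endothelial markers were all lower on average in dtg hearts and summed to 12.0 to 16.0 in dtg and 12.6 to 19.3 in control hearts, and the 4 leukocyte markers on the array, 2 of them higher, to 17.0 to 18.8 in dtg and 15.5 to 20.7 in control hearts. Erythroid markers were higher on average in dtg hearts for 4 of 4, with sums of 769 to 1019 in dtg and 527 to 962 in control hearts. Smooth muscle markers were lower on average for 4 of 4, with sums of 20.6 to 25.3 in dtg and 24.7 to 28.6 in control hearts. Adipocyte markers were higher on average for 1 of 4 and summed to 1.28 to 1.53 in dtg and 0.80 to 2.28 in control hearts, with Lep not above background on every array. The part of these cells in the members' values was not tested.

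Among 44 other genes of the pathway, from binding proteins to kinases, 41 were measured above the filter, all but Igfbp1, Grb7 and Sos1. None passed the adjusted threshold and none reached an unadjusted p under 0.05 in either direction (0.616% of all features did so as higher and 0.131% as lower in dtg hearts). They divided into 21 higher and 20 lower on average in dtg hearts, with a median difference of 0.0016. Tsc2, a brake on mTOR, differed by 0.53 (SE 0.31; adjusted p = 1, limma), and Insrr, the third receptor of the insulin receptor family, by 0.57 (SE 0.38; adjusted p = 1, limma). Tsc2 was -2.34 in dtg 3 and -3.16 in dtg 4, while the other 6 hearts lay between -3.86 and -3.70. Igfbp5, which binds IGFs outside the cell, differed by -0.22 (SE 0.13; adjusted p = 1, limma), and Ptpn1, a phosphatase of the insulin receptor, by -0.23 (SE 0.17; adjusted p = 1, limma).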

How the data were processed

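RNA of 4 dtg and 4 control hearts (100 ng each) was labelled and hybridised to 1-colour arrays, and per the file headers the authors made spot signals against a local background, in version 10.7.3.1 of Agilent's Feature Extraction software. The deposited scanner tables hold intensity values on a linear scale, and the authors also deposited log2 values that match quantile normalized, probe-centred signals (r of 1.000 with each array). The column medians were 0.00510, 0.00689, -0.0322 and -0.00946 for dtg 1 to 4 and -0.0154, -0.0168, 0.0323 and 0.0178 for control 1 to 4, and no label names the tool. The array annotation names mm9, so no array coordinates are used.

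Accessions were matched to symbols in RefSeq's GRCm38.p6 table (26369 of 39429 probes). Spots marked as outliers were left out, and replicate spots were averaged as log2 values. Each array's 75th percentile was subtracted. Probes well above background on at least 4 arrays were kept (26118), and the brightest probe stood for a gene. Differences, dtg minus control, were fitted with limma 3.58.1 in R 4.3.3 and adjusted by Benjamini-Hochberg over all 21434 features. Precision rests on 4 arrays a group, with a median SE of 0.178. No spot was saturated. In simulated data for this comparison, built on 21406 genes, limma recovered 7.46% of 67 genes changed by 0.5 log2 units, 44.8% of 67 genes changed by 1 log2 unit and 84.8% of 66 changed by 2. It also called 5 unchanged genes. The genes were drawn independently of each other, so variation shared by many genes of a heart was not simulated, and recovery in the real arrays may differ.

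Members and lists were chosen with earlier results of these data known. The genes named are the 10 members, the 5 most like Igf1r, and 2 pathway genes per direction by unadjusted p. Correlations used two-sided exact permutation. Alternatives were a normexp background correction on the pixel median (offset 50, without spots darker than their background), quantile and median scaling, other filters, the mean of all probes, the authors' values, slide and replicate number as blocks, within-slide fits, every probe, a threshold of 0.1, leaving out each heart, and, added after seeing the data, leaving out dtg 3, dtg 4 and control 4. The replicate numbers did not pair hearts: deviations from group means correlated by 0.542, -0.545, 0.152 and 0.161 between same-numbered hearts.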

Additional observations from a re-analysis of the deposited data

Results flagged for a closer look

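Insr probe A_55_P2173927 had 1 heart far from the others of its group. Its relative log2 signal was -1.99 in control 4, while control 1, control 2 and control 3 lay between -0.80 and -0.57, and the gap was 0.837 of the range of the 4 values, above Dixon's 95% critical value. Among the dtg hearts, dtg 4 was lowest at -1.47 and the others lay between -0.92 and -0.53. The brightest Insr probe gave 0.08 in control 4, within the values of the other hearts. This was 1 of 32 groups of 4 values examined, and chance flags about 5% of groups. Control 4 was also among the arrays that stood apart from the rest.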

How the results depend on the processing

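No feature passed an adjusted p of 0.05 by limma under any alternative run, nor a threshold of 0.1, so no call on a member changed. The count at an unadjusted p under 0.05 was 160, against 102 with normexp, 413 with no filter, 252 with slide as a block, 724 within slide 1, 495 within slide 2 and 98 to 331 with a heart left out (280 without control 3, 261 without dtg 1, 331 without dtg 2, 98 without dtg 3). With the replicate number as a block, which the pairing check did not bear out, it was 276. Of the differences recomputed per member and setting, 173 kept their direction and 33 reversed. Igf1r kept its direction under every setting run, at -0.39 with normexp, -0.42 with quantile normalization, -0.51 with median scaling and -0.56 to -0.24 with a heart left out.

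The reversed differences were these. Within slide 1: Insr 0.039, Igf2r 0.045, Igf1 0.15, Grb10 -0.072 and Grb14 0.0028. Within slide 2: Igf2 0.63, Irs2 0.48 and Shc1 -0.21. Without dtg 3, dtg 4 and control 4, a setting chosen after seeing the data: Igf2r 0.037, Igf1 0.12, Igf2 0.089 and Grb10 -0.072. With median scaling Shc1 gave -0.076, with the mean of all probes Insr gave 0.067, and other probes gave 0.10 and 0.13 for Insr and 0.036 for Irs1. With a heart left out the ranges were -0.078 to 0.011 for Insr, -0.090 to 0.010 for Igf2r, -0.11 to 0.059 for Igf1, -0.32 to 0.15 for Igf2, -0.25 to -0.12 for Irs1, -0.44 to 0.061 for Irs2, -0.083 to 0.19 for Shc1, 0.050 to 0.20 for Grb10 and -0.24 to -0.079 for Grb14.

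Of the correlations with Igf1r, 0 of 9 passed, against 2 with median scaling (Irs1 0.842 and Shc1 0.875), 1 with the mean of all probes (Insr -0.868) and 2 with group means removed (Shc1 0.967 and Igf2 -0.938). With median scaling the r of every member moved upward, among them Igf1 from 0.472 to 0.709 and Grb14 from 0.538 to 0.739. No share of all genes was computed for median scaling or the mean of all probes, so whether those passes are particular to the members was not tested. Signs reversed for Insr (0.592 with median scaling, 0.267 with slide means removed, 0.600 without dtg 1 and control 4), Grb10 (0.317 with median scaling, 0.00989 without those hearts), Igf2r (-0.211) and Igf1 (-0.191). With a heart left out r ranged from -0.440 to 0.196 for Insr, 0.00683 to 0.739 for Igf2r, -0.0796 to 0.741 for Igf1, -0.815 to -0.575 for Igf2, 0.516 to 0.904 for Irs1, -0.759 to -0.372 for Irs2, 0.451 to 0.848 for Shc1, -0.553 to 0.346 for Grb10 and 0.366 to 0.717 for Grb14. The cause of these changes was not tested, and 4 hearts a group limit every value.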
